A study of Mus musculus with 12 samples.

Results

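The astrocyte and Bergmann glia genes described here are 33 genes taken by symbol from the deposited table of normalized counts, which holds 54547 genes. All 33 were found, are protein-coding and passed the filter on low values, which asked for 10 or more normalized counts in 3 or more libraries and left 29835 genes to test. RNA was sequenced from sorted mouse brain cells in 12 libraries, 4 groups of 3, on a mixed 129;C57BL/6 background. RasV12 GFP+ and RasV12 CD11b+ libraries came from tumors of Msi1-CreER;RasV12 mice, and Control GFP+ and Control CD11b+ libraries from the cerebellum of Msi1-CreER;GFP mice, so every group carries Msi1-CreER and tissue and genotype differ together. CreER is a Cre recombinase that needs a drug to act, and here it is tied to Msi1, the gene of the RNA-binding protein Musashi-1, which neural stem cells and also mature astrocytes make. RasV12 is an oncogenic form of Ras. GFP+ cells carried the green fluorescent label, and CD11b+ cells are phagocytes sorted on the integrin encoded by Itgam. The labels of the tumor samples name no GFP allele. The sources used here give neither age nor time of induction. Nothing says whether the libraries of a group came from separate mice, and the spread behind each p-value is that among libraries, which may be technical.

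Astrocytes are the glia that clear transmitters and potassium from around synapses, couple to each other through gap junctions and supply neurons with metabolites. Bergmann glia are the specialised astrocytes of the cerebellar cortex, whose radial fibres span the molecular layer beside Purkinje cell dendrites and whose glutamate and GABA carriers face the synapses there. When tissue is injured, astrocytes turn reactive, which is classically seen as more of the filament protein GFAP.

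Recovered read totals were 18519240 to 34432725 in GFP+ libraries, 7883870 to 34601205 in Control CD11b+ libraries, and 3642570, 2951629 and 23589310 in RasV12 CD11b+ libraries 1, 2 and 3, so RasV12 CD11b+ 1 and 2 are shallow. Microglia and myeloid genes held 0.00126 to 0.00802% of the normalized count in GFP+ libraries, 2.05 to 4.52% in phagocytes of control cerebellum and 0.431 to 0.735% in those of RasV12 tumors. Control GFP+ libraries were not of astrocytes alone: beside the 33 genes, which held 2.93 to 4.61% of their normalized count, a list of 12 oligodendrocyte genes held 2.52 to 3.15% and 5 hemoglobin and other erythroid genes 0.0459 to 3.32%. Mitochondrial genes held 20.1 to 30.4% in Control GFP+ and 1.53 to 2.62% in RasV12 GFP+ libraries, and in phagocytes the order was opposite, with 0.630 to 2.54% in control and 13.3 to 17.7% in RasV12. In bulk RNA of this kind, fewer cells of a type and less RNA per cell cannot be told apart.

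In GFP+ cells each of the 33 genes had a lower mean in RasV12 tumors than in control cerebellum, by very different amounts, and only Slc1a3 changed sign under another scaling. Summed over the 33 genes, the normalized count was 893305, 683376 and 750522 in Control GFP+ libraries and 72764, 152996 and 175163 in RasV12 GFP+ libraries. S100b, Aldoc, Ndrg2, Gdf10 and Ntsr2 were left at 2.25%, 3.21%, 1.23%, 0.6% and 0.146% of the control mean, whereas Mlc1, Slc7a10, Slc1a3, Hopx, Gja1 and Gfap had means at 79.5%, 67.6%, 60.9%, 58.4%, 50.6% and 42.5% of it, with none of these 6 passing the test. By limma on log2(normalized count + 1), with Benjamini-Hochberg adjustment over all tested genes, 13 of the 33 genes fell, 0 rose and 20 did not pass. Of all genes tested, 2.65% were called lower and 4.14% higher. At an unadjusted p under 0.05 the counts were 24 lower and 0 higher, and edgeR called 11 lower and 0 higher and DESeq2 21 lower and 0 higher. Of all 29835 tested genes, 5688 had a limma unadjusted p under 0.05 in either direction. By edgeR 1122 of them were called in either direction, and by DESeq2 4907. The median log2 fold change of the 33 was -3.04, against 0.56 over all tested genes. The 3 libraries of each group did not overlap for 30 of the 33 genes, all lower in RasV12; 10.9% of all tested genes were lower and 17.2% higher without overlap. The 3 that overlapped were Mlc1, Slc1a3 and Aldh1l1. The sign of the log2 fold change was below 0 for all 33 under upper-quartile scaling too, while under quantile normalization that of Slc1a3 turned to 1.21. Quantile normalization also moved the all-gene median to -0.12 and the share of higher among all calls from 60.9% to 49.3%.

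**Figure D1:**
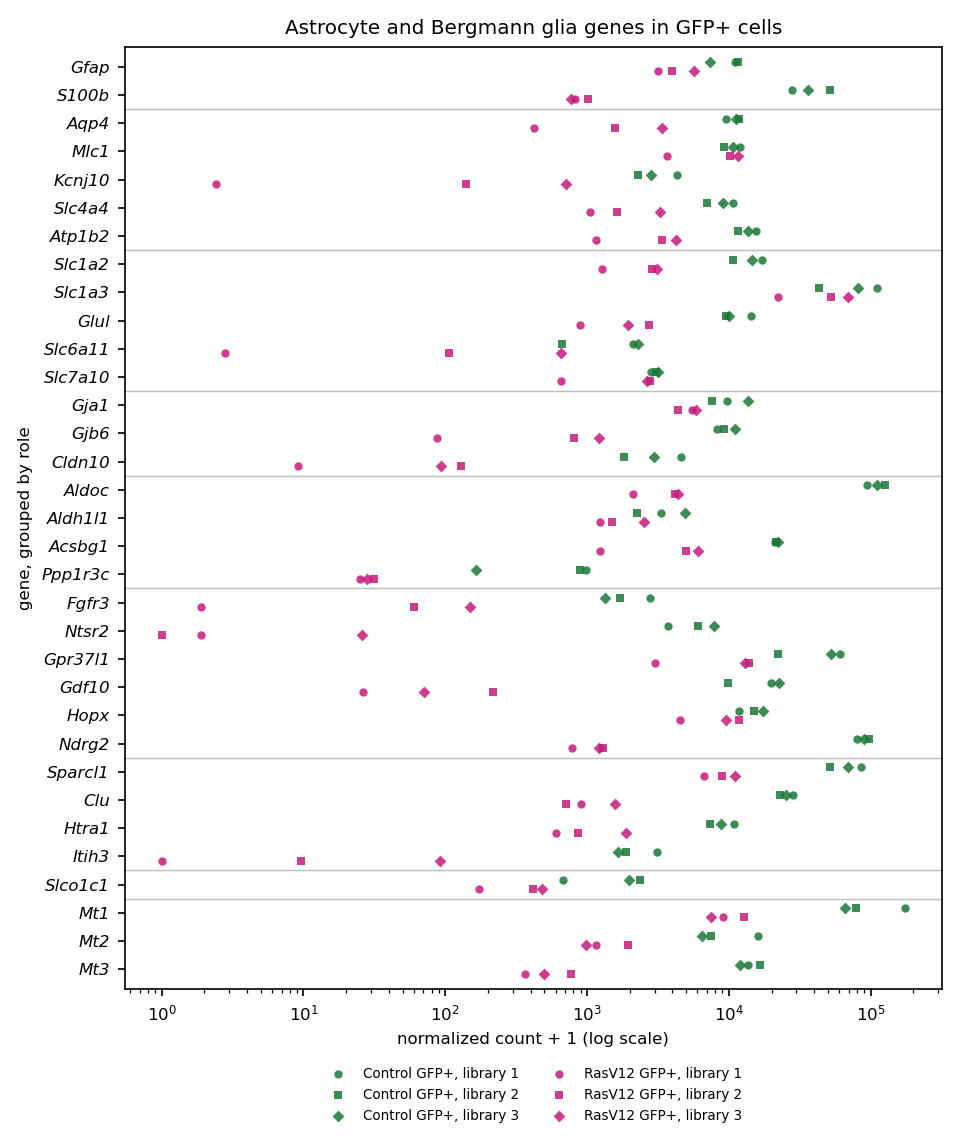
Normalized count plus 1 (log axis) of each of the 33 genes in the 3 Control GFP+ (green) and 3 RasV12 GFP+ (magenta) libraries, 1 point per library with the library number as the marker shape and genes grouped by role. Green and magenta points mix for Mlc1, Slc1a3 and Aldh1l1 and are apart for the other 30 genes.

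Transcripts of the astrocyte marker proteins differed in how much was left. S100b encodes a calcium-binding protein of astrocytes and Bergmann glia. Its normalized counts were 28033, 51722 and 36298 in Control GFP+ libraries and 820.1, 1021 and 772 in RasV12 GFP+ libraries. All 3 control libraries were far above all 3 tumor libraries, a log2 fold change of -5.44 ± 0.44 (SE; limma adjusted p = 3.0e-05). Gfap, the intermediate filament of astrocytes, read 11135, 11589.5 and 7345 in Control GFP+ and 3160.3, 3962 and 5657 in RasV12 GFP+ libraries. The groups did not overlap, but the difference of -1.25 ± 0.46 did not pass (limma adjusted p = 0.135). On the FPKM scale, which divides by gene length, Gfap stood above S100b in RasV12 GFP+ cells (60.5 against 35.2 FPKM on average), and S100b above Gfap in Control GFP+ cells (1564 against 142 FPKM).

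Of the 5 genes of water, ion and volume transport, 1 fell. Slc4a4, the sodium bicarbonate cotransporter of astrocytes, read 10682, 6992 and 9132 in Control GFP+ and 1042, 1623 and 3295 in RasV12 GFP+ libraries, without overlap (log2 fold change -2.31 ± 0.63, limma adjusted p = 0.0428). Kcnj10, the Kir4.1 channel that takes up potassium, gave 4312, 2274 and 2809 against 1.4, 139 and 707. The tumor libraries lay far apart from each other, all below the controls, and the difference of -5.61 ± 1.76 did not pass (limma adjusted p = 0.0776). Aqp4, the water channel of astrocyte endfeet, gave 9600, 11748 and 11151 against 418, 1584 and 3371, again apart but not passing (-3.04 ± 1.88, limma adjusted p = 0.439). Atp1b2, a beta subunit of the sodium pump, had a difference of -2.40 ± 0.90 that did not pass (limma adjusted p = 0.146). Mlc1 encodes a membrane protein of astrocyte endfeet and Bergmann glia that takes part in volume regulation. It read 11993, 9204 and 10716 in Control GFP+ and 3644, 10219 and 11520.4 in RasV12 GFP+ libraries: tumor libraries 2 and 3 lay within the control range and library 1 well below it. Its difference was -0.49 ± 0.60 (limma adjusted p = 0.767), and 0.037 without RasV12 GFP+ library 1.

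Of the 5 genes of transmitter uptake and recycling, 2 fell, and the 2 glutamate carriers differed in how much was left. Slc1a2 encodes GLT-1, the main glutamate carrier of forebrain astrocytes. It read 17144, 10645 and 14664 in Control GFP+ and 1275, 2850.1 and 3115 in RasV12 GFP+ libraries, without overlap (-2.63 ± 0.69, limma adjusted p = 0.0362). Slc1a3 encodes GLAST, the glutamate carrier of Bergmann glia and of radial glia. It read 111492, 43261 and 81974 against 22269.6, 52759 and 69082. The groups overlapped, and the difference of -0.76 ± 0.47 did not pass (limma adjusted p = 0.442). Glul, glutamine synthetase, which turns the captured glutamate into glutamine, fell from 14358, 9572 and 10045 to 894, 2753 and 1958 (-2.72 ± 0.40, limma adjusted p = 0.00149). Slc6a11, the GABA carrier GAT-3, read 2118, 664 and 2285 against 1.8, 106 and 651 and did not pass (-4.67 ± 1.56, limma adjusted p = 0.0983). Its highest tumor library came close to its lowest control library. Slc7a10, the neutral amino acid carrier Asc-1, read 2824, 3062 and 3145 against 651, 2790 and 2665, with tumor libraries 2 and 3 just under the controls (-0.83 ± 1.5, limma adjusted p = 0.855).

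The junction genes differed as well. Gja1, connexin 43, the main gap junction protein of astrocytes, read 9783, 7659.7 and 13721 in Control GFP+ and 5529, 4399.6 and 5852 in RasV12 GFP+ libraries. Its tumor libraries lay close together, just below the controls (-0.95 ± 0.46, limma adjusted p = 0.283, not passing). Gjb6, connexin 30, which astrocytes make later in development, read 8220.3, 9186 and 11072 against 86.7, 811 and 1208. It kept a smaller share of its control mean than Gja1 (7.39% against 50.6%), though with a wide spread (-4.42 ± 1.45, limma adjusted p = 0.0912, not passing). Cldn10, a claudin that marks astrocytes, fell from 4570.2, 1813 and 2968 to 8.1, 128 and 92.6 (-5.92 ± 1.10, limma adjusted p = 0.00575).

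Of the 4 genes of metabolic enzymes, 2 fell. Aldoc, aldolase C, known as zebrin II in the cerebellum, where both astrocytes and a subset of Purkinje cells make it, was the second most abundant of the 33 in Control GFP+ cells per length (2026 FPKM). It fell from 93729, 126886 and 110030 to 2092, 4140.5 and 4369 normalized counts (-5.03 ± 0.36, limma adjusted p = 1.2e-05), the smallest adjusted p of the 33. Acsbg1, an acyl-CoA synthetase of astrocytes known as bubblegum, was very even in control libraries at 21155, 21530 and 22057 and fell to 1225, 4990 and 6017 (-2.70 ± 0.65, limma adjusted p = 0.0233). Aldh1l1, the folate enzyme widely used as an astrocyte marker, read 3301, 2261 and 4909 against 1225, 1501 and 2526 and overlapped (-0.99 ± 1.10, limma adjusted p = 0.738). Ppp1r3c, which targets a phosphatase to glycogen, was low in both groups, at 979, 892 and 164 and 23.9, 30.4 and 27.2 (-4.23 ± 1.80, limma adjusted p = 0.211).

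Signalling and transcription genes held the deepest falls. Ntsr2, the astrocyte neurotensin receptor, read 3752, 6109 and 7859.9 in Control GFP+ and 0.9, 0 and 25.0 in RasV12 GFP+ libraries, the lowest of the 33 relative to control (-10.59 ± 1.76, limma adjusted p = 0.00298). Gdf10, a TGF-beta family ligand that Bergmann glia express strongly, fell from 19673, 9836 and 22555 to 25.3, 217 and 69.7 (-7.79 ± 1.0, limma adjusted p = 6.3e-04). Ndrg2, a gene of mature astrocytes, fell from 80492, 97727 and 89189 to 777, 1290.4 and 1211 (-6.38 ± 0.83, limma adjusted p = 6.5e-04). The highest tumor library reached 0.423% of the control mean for Ntsr2, 1.25% for Gdf10 and 1.45% for Ndrg2. The other 3 of the 6 did not pass. Fgfr3, a receptor of fibroblast growth factors that marks the astrocyte lineage, read 2767, 1701 and 1337 against 0.9, 59.0 and 147 (-6.17 ± 1.85, limma adjusted p = 0.0641). Gpr37l1, an orphan receptor abundant in Bergmann glia, read 61165, 22109.9 and 52318 against 3023, 13949 and 13012 (-2.34 ± 1.18, limma adjusted p = 0.314). Hopx, a homeodomain protein found in radial glia and Bergmann glia, read 11847, 15062 and 17497 against 4501, 11819 and 9597. Its tumor library 2 fell just short of the lowest control library (-0.87 ± 0.42, limma adjusted p = 0.291).

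Among the genes of secreted proteins and hormone transport, Itih3, the heavy chain of an inter-alpha-trypsin inhibitor, fell from 3097, 1884 and 1639 to 0, 8.6 and 90.1 (-7.79 ± 2.04, limma adjusted p = 0.035). Sparcl1, the matricellular protein hevin, which promotes synapse formation, read 85402, 51369 and 69783 against 6637, 8909 and 10972. Clu, the chaperone clusterin, read 28566, 23029 and 25337 against 910, 712 and 1565. Both were apart between the groups without passing (-2.96 ± 1.59 and -4.67 ± 1.63, limma adjusted p = 0.354 and 0.116). Htra1, a secreted serine protease, had a difference of -3.16 ± 0.94 (limma adjusted p = 0.062), and Slco1c1, a carrier of thyroid hormone, one of -2.17 ± 0.75 (limma adjusted p = 0.11).

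Metallothioneins are small cysteine-rich proteins that bind zinc and copper, and Mt1, Mt2 and Mt3 lie on the plus strand of chromosome 8 within 27.7 kb of each other. Promoters of metallothionein genes can hold metal response elements, the sites of the zinc-sensing factor MTF1. Mt3 is known as the brain form that responds little to metals. The sequences shown are the 250 bases before each start annotated by RefSeq (GRCm38.p6). They are shown since these 3 neighbours each had lower values in all 3 RasV12 GFP+ libraries than in any control library, which held for 30 of the 33 genes. Capitals mark the metal response element core, searched as TGCACNC or TGCGCNC on both strands, so that a match on the minus strand reads as its reverse complement.
Mt1 (chr8:94178839-94179088): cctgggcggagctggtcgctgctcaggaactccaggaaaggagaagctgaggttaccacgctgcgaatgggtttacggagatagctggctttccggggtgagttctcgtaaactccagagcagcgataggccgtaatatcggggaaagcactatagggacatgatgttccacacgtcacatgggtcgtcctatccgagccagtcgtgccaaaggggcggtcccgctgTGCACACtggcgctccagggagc
Mt2 (chr8:94172368-94172617): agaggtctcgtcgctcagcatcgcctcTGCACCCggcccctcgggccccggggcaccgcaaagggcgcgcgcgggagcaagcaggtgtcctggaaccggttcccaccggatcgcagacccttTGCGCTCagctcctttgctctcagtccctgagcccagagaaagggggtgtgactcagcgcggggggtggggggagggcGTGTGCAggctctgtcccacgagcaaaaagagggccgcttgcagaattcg
Mt3 (chr8:94152357-94152606): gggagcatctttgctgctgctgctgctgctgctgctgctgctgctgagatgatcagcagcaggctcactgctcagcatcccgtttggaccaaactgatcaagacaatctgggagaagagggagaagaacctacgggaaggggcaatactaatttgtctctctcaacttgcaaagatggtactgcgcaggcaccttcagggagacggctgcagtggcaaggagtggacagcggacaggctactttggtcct

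The window held 1 match before Mt1, 3 before Mt2 and 0 before Mt3, where 21.4% of the 32851 RefSeq promoter windows of this length held at least 1 and 1.26% at least 3. Matches were not particular to metallothioneins. Gdf10 and Slc6a11 had up to 2 in a window, and Glul, Hopx, Kcnj10, Ppp1r3c, Slc4a4 and Slc7a10 up to 1. A match describes letters, not a bound site, and the RefSeq start of Mt1 used here lies near the first base of its GENCODE gene model, so this window leaves out what lies further downstream. Mt1 was the most abundant of the 33 genes per length in both GFP+ groups, at 5109.6 FPKM in control and 471 FPKM in RasV12. It fell from 174324, 78312 and 65798 to 9078, 12819.9 and 7480.5 normalized counts (-3.34 ± 0.48, limma adjusted p = 0.00126). Mt3 fell from 13672, 16466 and 11964 to 366, 775 and 494 (-4.74 ± 0.73, limma adjusted p = 0.00189). Mt2 read 16088, 7429.6 and 6438 against 1158, 1955 and 981, without overlap, and missed the threshold (-2.81 ± 0.81, limma adjusted p = 0.0554). The ratio of Mt1 to Mt2 normalized counts was 10.2 to 10.8 in Control GFP+ and 6.56 to 7.84 in RasV12 GFP+ libraries, so the ranges did not overlap. With 3 libraries against 3, an exact two-sided permutation test cannot give a p below 0.10.

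The RasV12 GFP+ libraries differed among themselves in these genes more than the controls did. The highest library stood at a median of 3.10 times the lowest in RasV12 GFP+ cells (values raised by 1; from 1.26 for Ppp1r3c to 295 for Kcnj10) and at 1.66 times in Control GFP+ cells (from 1.04 for Acsbg1 to 5.95 for Ppp1r3c). RasV12 GFP+ library 1 was the lowest of the 3 for 27 of the 33 genes (81.8%) and the highest for 0, where it was the lowest for 40.8% of all tested genes that differed among the 3 libraries. Library 3 was the highest for 21 of the 33 (63.6%, against 29.9% of all such genes). Against the control mean, Kcnj10 stood at 0.0447%, 4.45% and 22.6% in libraries 1, 2 and 3, and Slc6a11 at 0.107%, 6.28% and 38.5%. S100b, at 2.12%, 2.64% and 2.0%, and Ppp1r3c, at 3.52%, 4.48% and 4.01%, were at one level in all 3. The ratio of the highest to the lowest library was not taken over all tested genes. Whether the wider spread was particular to the 33 genes was therefore not tested, and neither was its cause.

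**Figure D2:**
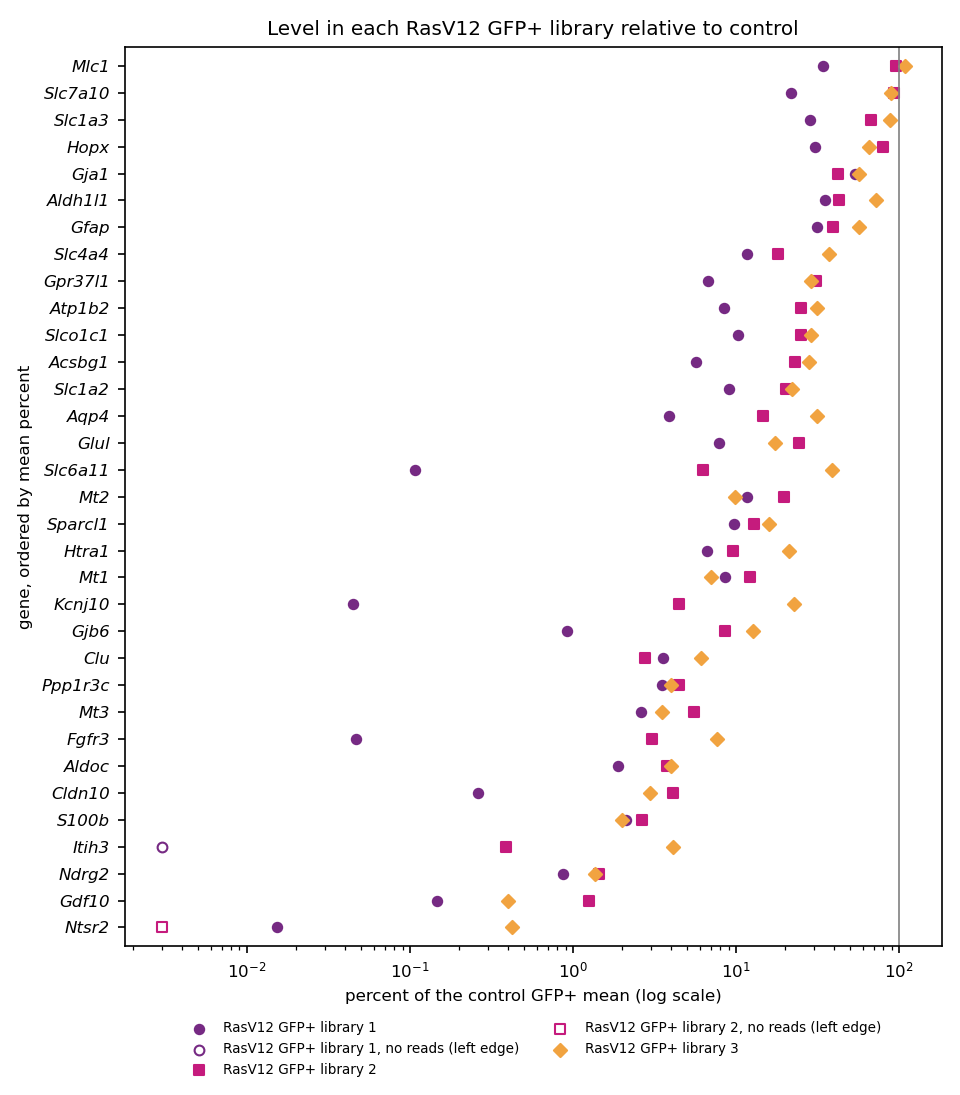
Each RasV12 GFP+ library as a percent of the Control GFP+ mean (log axis) for the 33 genes, ordered by their mean percent, with open symbols at the left edge where a library had no reads. Library 1 (purple circles) is the lowest for 27 of the 33 genes, and the means run from 0.146% for Ntsr2 to 79.5% for Mlc1.

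How firmly each fall is measured differed. S100b, Glul, Aldoc, Ntsr2, Gdf10, Mt1 and Mt3 passed in all 26 alternatives, which covered other tables, scalings, filters and tests and each library left out. Cldn10 and Ndrg2 passed in 25, all but the one that subtracts the rate of reads over receptor genes. Acsbg1 passed in 18 of 26, Slc1a2 and Itih3 in 16 and Slc4a4 in 13. These 4 did not pass without any 1 of the 3 Control GFP+ libraries or without RasV12 GFP+ library 1; Slc1a2, Slc4a4 and Itih3 not without RasV12 GFP+ library 2, and Slc1a2 not without RasV12 GFP+ library 3. Itih3 was also lost without Control CD11b+ library 1, and Slc4a4 without Control CD11b+ library 3 or RasV12 CD11b+ library 2, since all 12 libraries share 1 estimate of the spread. For the same reason the count of falls was 21 without the shallow RasV12 CD11b+ libraries 1 and 2: the 13 and also Atp1b2, Clu, Gjb6, Gpr37l1, Htra1, Mt2, Ppp1r3c and Sparcl1. Reads of a gene and of a partner that overlaps its exons cannot be told apart in these unstranded libraries, which touches Aldh1l1, Fgfr3, Glul, Hopx, Mt2, Slc1a2 and Slc7a10.

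A wider list of 32 other astrocyte and Bergmann glia genes moved less evenly: 8 fell, 2 rose and 22 did not pass, with a median log2 fold change of -1.53. Of all genes tested, 2.65% were called lower and 4.14% higher, so 2 of 32 is near the share that rose over all genes. Etnppl, an enzyme of phosphoethanolamine breakdown, fell from 1820.3, 2619 and 2744 to 5.0, 33.8 and 24.3 (-7.08 ± 0.81, limma adjusted p = 2.8e-04). Apoe, the lipid carrier, fell by a log2 fold change of -3.36 ± 0.57 (limma adjusted p = 0.00319), Prdx6, a peroxiredoxin, by -2.56 ± 0.44 (limma adjusted p = 0.00355), and Fxyd1, a regulator of the sodium pump, by -4.54 ± 0.80 (limma adjusted p = 0.00423). The 2 that rose, named after their values were seen, were Ptn, the growth factor pleiotrophin, from 9471, 8038 and 11912 to 34431, 41628 and 49894 (2.1 ± 0.54, limma adjusted p = 0.0326), and Cspg5, the proteoglycan neuroglycan C, from 1030.4, 763 and 1132 to 4012, 4816 and 7256 (2.43 ± 0.63, limma adjusted p = 0.0334). Each passed in 17 of 26 alternatives with the same sign in all.

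Genes known from reactive astrocytes went the other way. Of 18 tested, 7 rose and the other 11 did not pass, where 4.14% of all tested genes were called higher. The median log2 fold change was 3.52. Cp, ceruloplasmin, the copper-carrying ferroxidase, rose from 375, 683 and 780.3 to 3036, 5182 and 8624 (3.13 ± 0.53, limma adjusted p = 0.00335). Timp1, an inhibitor of matrix proteases, rose from 106, 136 and 81.4 to 25024, 15039 and 10219 (7.20 ± 1.29, limma adjusted p = 0.00464). Cd44, the hyaluronan receptor, rose from 244, 0 and 71.2 to 3746, 3242 and 4021 (7.13 ± 1.40, limma adjusted p = 0.00782), and Sphk1, a sphingosine kinase, by 7.66 ± 1.31 on the log2 scale (limma adjusted p = 0.00356). The other 3, named after their values were seen, were Nes, Tm4sf1 and Emp1. Cells other than astrocytes also make several of these genes. Gfap, the best known reactive gene, was not among those that rose, as described together with S100b.

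Markers of other cell types moved with the group in GFP+ cells too, where 2.65% of all tested genes were called lower. In the same comparison 11 of 12 oligodendrocyte genes, 9 of 14 neuron genes, 4 of 10 endothelial and pericyte genes, 4 of 5 erythroid genes, 2 of 8 oligodendrocyte precursor genes and 2 of 8 choroid plexus and ependyma genes fell. Summed, the oligodendrocyte genes gave between 505457 and 609718 normalized counts in Control GFP+ and between 2327 and 5496 in RasV12 GFP+ libraries. The neuron genes gave between 93926 and 122962 in Control GFP+ and between 3347 and 6023 in RasV12 GFP+ libraries. The 14 microglia and myeloid genes stayed low in both, at 244.6 to 1355 and 304 to 964, with Itgam at 0 in all 3 Control GFP+ libraries and in 2 of 3 RasV12 GFP+ libraries. The part of cell makeup, of mitochondrial share and of tissue in the falls of the 33 genes was not tested.

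**Figure D3:**
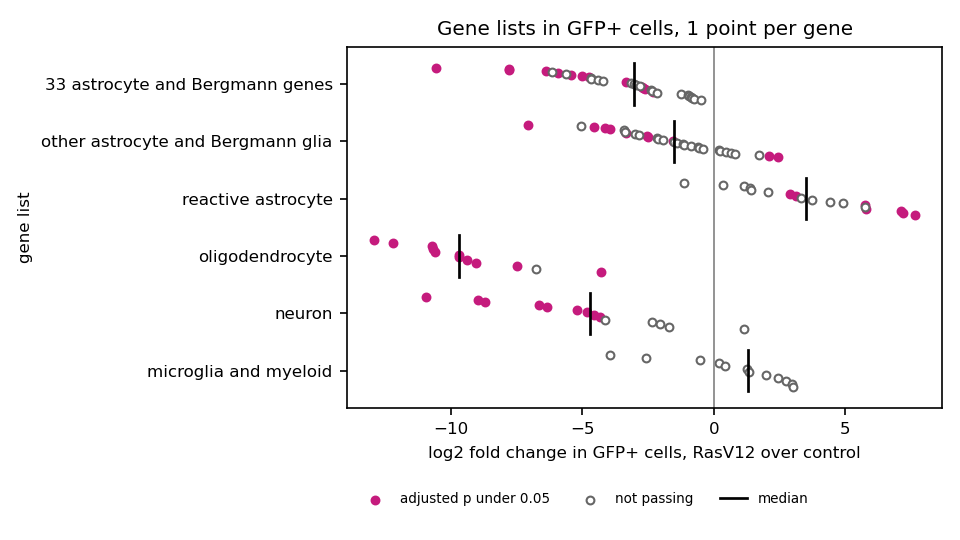
Log2 fold change between RasV12 and Control GFP+ cells for each gene (1 point) of the 33 genes and of 5 other lists, filled where the adjusted p was under 0.05, with a vertical bar at the median. The 33 genes lie wholly below 0 (median -3.04; Slc1a3 above it under quantile normalization), 17 of 18 reactive astrocyte genes lie above it (median 3.52), and oligodendrocyte genes lie lowest.

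In CD11b+ phagocytes the 33 genes were low. In control cerebellum 32 of 33 were lower in CD11b+ than in GFP+ cells and 0 higher, all 33 without overlap, where 6.91% of all tested genes were called lower and 19.3% higher, and 12.7% were lower and 32.9% higher without overlap. At an unadjusted p under 0.05 it was 33 lower and 0 higher, and edgeR called 32 and DESeq2 33 lower and neither called any higher. Of all 29835 tested genes, 12308 had a limma unadjusted p under 0.05 in either direction. By edgeR 4613 of them were called in either direction, and by DESeq2 10850. The median log2 fold change was -6.14, against 1.80 over all tested genes. Kcnj10 alone did not pass (-4.25 ± 1.76, limma adjusted p = 0.0877). Glul had the smallest difference, with 3212, 2889 and 4003 in Control CD11b+ libraries against 14358, 9572 and 10045 in Control GFP+ libraries (-1.74 ± 0.40, limma adjusted p = 0.00796), which left it at 29.7% of the GFP+ mean. Quantile normalization moved the all-gene median here to -0.02 and the share of higher among all calls from 73.7% to 44.3%. The sum over the 33 genes was 18351 to 18694 in the 3 Control CD11b+ libraries and 15129 to 21909 in RasV12 CD11b+ libraries.

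Between RasV12 and Control CD11b+ cells, Gfap, Slc4a4 and Gja1 rose, Atp1b2, Glul, Gpr37l1, Gdf10 and Htra1 fell, and 25 of the 33 did not pass. Of all genes tested, 2.97% were called higher and 2.39% lower. Without overlap 6 were higher and 7 lower, where the shares of all tested genes were 19.0% and 8.59%. The median log2 fold change of the 33 was -0.80, against 0.74 over all tested genes. Upper-quartile scaling moved that all-gene median to 0.21 and the share of higher among all calls from 55.4% to 29.8%, and quantile normalization moved them to 0.13 and 30.5%. Gfap read 228, 832 and 453 in the 3 Control libraries against 2398, 4851 and 3998 in the 3 RasV12 libraries, a log2 fold change of 3.02 ± 0.46 (limma adjusted p = 0.00522). The lowest tumor library was well above the highest control library. Gja1 read 394, 1058 and 246 against 1961, 1600.5 and 2045 (1.99 ± 0.46, limma adjusted p = 0.0272). Slc4a4 read 72.1, 302 and 151 against 1921, 892 and 507 (2.67 ± 0.63, limma adjusted p = 0.0297).

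Summed levels of some markers of other cell types differed between the groups in CD11b+ cells as well. Of all genes tested here, 2.97% were called higher and 2.39% lower, and 19.0% were higher and 8.59% lower without overlap. Of 10 endothelial and pericyte genes 1 rose, and their summed normalized count was 614 to 2992 in control and 5045 to 5925 in RasV12 libraries, with 6 of the 10 higher without overlap. Of 8 oligodendrocyte precursor genes 2 rose, and their sum was 226 to 1027 in control and 1716 to 3617 in RasV12 libraries. Of 14 neuron genes 1 rose and 2 fell, with sums of 1592 to 4789.8 and 4649 to 8125, which overlap. The 12 oligodendrocyte genes gave overlapping sums of 4515 to 7253 and 4881 to 5851, and 1 of them fell. Of the 12 microglia and myeloid genes tested, 0 passed in either direction. Without overlap, 10 of them lay lower in RasV12 libraries, where 8.59% of all tested genes did. The sum of all 14 listed was 241621 to 679239 in control and 70440 to 104061 in RasV12 libraries. Olig2 of the precursor list and Cldn11 and Gjb1 of the oligodendrocyte list had no read in any RasV12 CD11b+ library. Reads over receptor genes, described next, came to 58.9 to 89.5 normalized counts per kb of exon in RasV12 CD11b+ libraries. In Control CD11b+ libraries 1, 2 and 3 they came to 4.60, 37.6 and 4.73. The sums above were not corrected for such reads, whose part in them was not tested. The part of these other cell types and of the mitochondrial share in the changes of the 33 genes in CD11b+ cells was not tested.

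Reads over olfactory, vomeronasal and taste receptor genes, which these cells are not known to use, were taken as an average level of reads where no transcript is thought to be. They came to 58.9 to 89.5 normalized counts per kb of exon in RasV12 CD11b+ libraries, 37.6 in Control CD11b+ library 2, 4.60 and 4.73 in Control CD11b+ libraries 1 and 3 and 0.830 to 3.41 in GFP+ libraries. Multiplied by each gene's exon length, that rate was exceeded by 33 of 33 genes in each Control GFP+ library and by 27 to 33 in RasV12 GFP+ libraries. It was exceeded by 29, 19 and 30 of 33 in Control CD11b+ libraries 1, 2 and 3, and by 15, 17 and 14 of 33 in RasV12 CD11b+ libraries 1, 2 and 3, so that Control library 2 lay closer to the tumor libraries than to the other controls. Gfap exceeded it in all 3, since its exon length gave 249 to 377 normalized counts there, and with this rate subtracted it still rose, by 3.05 ± 0.50 on the log2 scale (adjusted p of 1.8e-05 to 0.118 over the 26 alternatives, 24 passing). Gja1 exceeded it in all 3 too (604 to 918) but no longer passed once it was subtracted (1.54 ± 0.51; adjusted p of 0.00192 to 0.334 over the alternatives, 18 passing). Slc4a4, a long gene with 637 to 968 by this rate, exceeded it in 1 library, and its difference turned to -0.38 once subtracted (adjusted p of 0.00442 to 0.961 over the alternatives, 17 passing). The rate is an average over receptor genes and does not hold for each gene. In RasV12 CD11b+ libraries 1, 2 and 3 it gave Gdf10 410, 466 and 307 normalized counts, where no read was seen. For Atp1b2 it gave 322, 366 and 241, where 0, 11.1 and 1.8 were seen.

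Of the 5 that fell in CD11b+ cells, 4 had few or no reads in the tumor libraries. Glul, the exception, went from 3212, 2889 and 4003 to 1038, 1468 and 893 (-1.59 ± 0.40, limma adjusted p = 0.0382). Gdf10 went from 65.1, 15.0 and 74.2 to no read in any RasV12 CD11b+ library, at least 35.5-fold lower when 3 reads over the whole group are taken as the floor (limma adjusted p = 0.0112). Atp1b2 went from 129, 56.9 and 219 to 0, 11.1 and 1.8 (-5.19 ± 0.90, limma adjusted p = 0.00886), which is 0, 2 and 3 reads. Gpr37l1 went from 288, 234 and 215 to 4.5, 83.1 and 0 (-4.98 ± 1.18, limma adjusted p = 0.0301), and Htra1 from 47.0, 28.4 and 43.0 to 13.4, 0 and 1.2 (-3.65 ± 0.94, limma adjusted p = 0.0413). Glul was above the receptor rate in all 3 RasV12 CD11b+ libraries and the other 4 were below it in all 3. Clu and Gjb6 had no read in RasV12 CD11b+ libraries 2 and 3 and did not pass (limma adjusted p = 0.0599 and 0.0582). Gfap and Atp1b2 passed with any 1 library left out. Without Control CD11b+ library 1 or 3 they were the only 2 of the 8 that passed. Without RasV12 CD11b+ library 1, Gja1, Glul, Gpr37l1 and Slc4a4 were lost; without library 2, Htra1 and Slc4a4; and without library 3, Glul and Htra1. With the shallow RasV12 CD11b+ libraries 1 and 2 both left out, which leaves 1 RasV12 CD11b+ library against 3 and takes its spread from the other groups, the log2 fold change of Gfap was 3.18 ± 0.64, and 1 of the 33 was called higher and 6 lower on that assumption. Fitted on the 6 CD11b+ libraries alone, limma called 0 of all 29835 tested genes, and so 0 of the 33. At an unadjusted p under 0.05 that fit gave 6 of the 33 higher and 8 lower. Of all tested genes, 6845 were under it in either direction. Over all 12 libraries, edgeR called 0 of the 33 higher and 4 lower, and 434 of all tested genes in either direction. DESeq2 called 5 of the 33 higher and 4 lower, and 2403 of all tested genes.

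**Figure D4:**
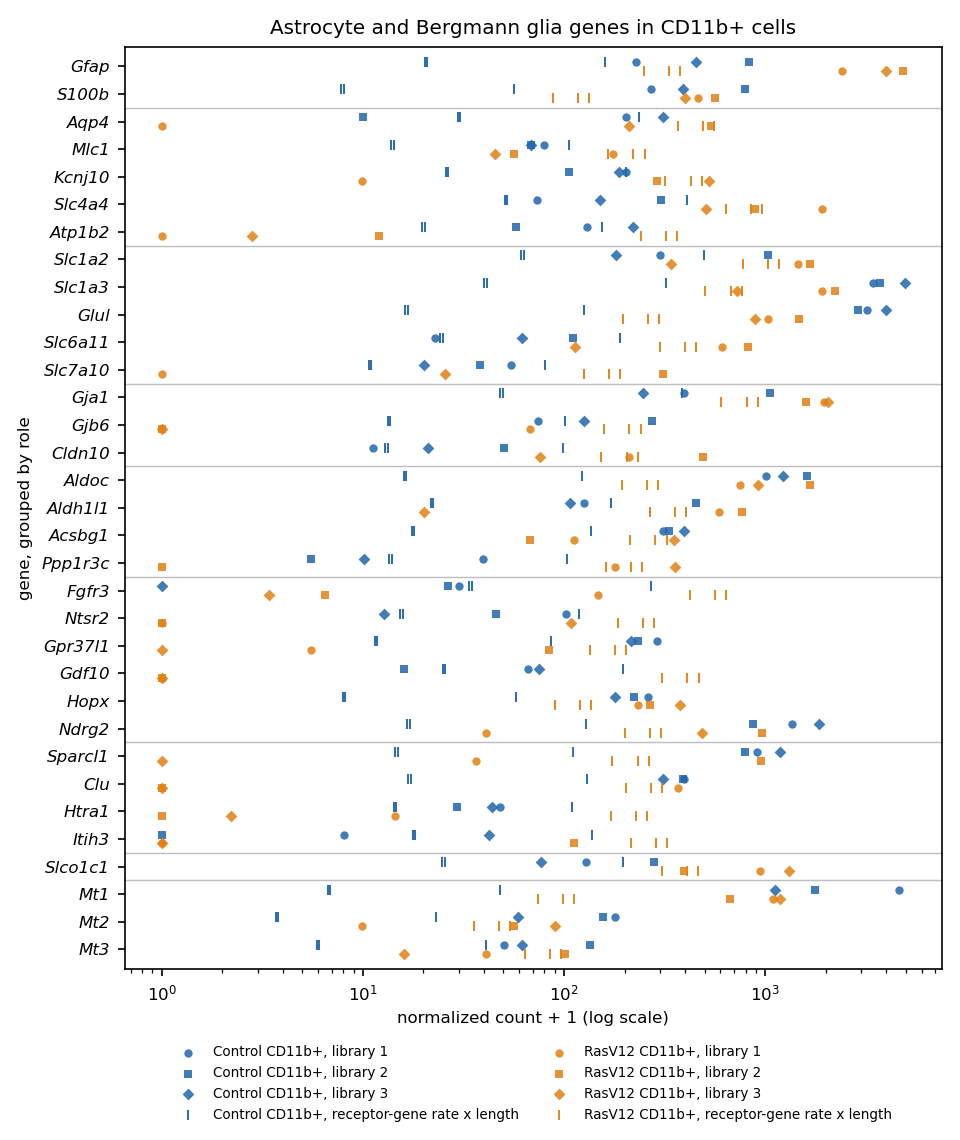
Normalized count plus 1 (log axis) of the 33 genes in the 3 Control CD11b+ (blue) and 3 RasV12 CD11b+ (orange) libraries, with ticks for the count that the receptor-gene rate gives for each gene's exon length in each library. Gfap lies to the right of the tick of the same library in all 3 RasV12 libraries, at 7.22, 12.9 and 16.1 times the count given. S100b, Slc1a3, Glul, Gja1, Aldoc, Hopx and Mt1 also do so in all 3. Slc4a4 does so in 1 of 3, at 2.26 times.

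In the tumors, 18 of the 33 genes were lower in CD11b+ than in GFP+ cells, 0 were higher and 15 did not pass, where 10.2% of all tested genes were called lower and 29.8% higher. At an unadjusted p under 0.05 it was 20 lower and 0 higher, edgeR called 22 lower and DESeq2 16 lower, and neither called any higher. Of all 29835 tested genes, 15052 had a limma unadjusted p under 0.05 in either direction. By edgeR 4692 of them were called in either direction, and by DESeq2 12439. Without overlap 19 were lower, while of all tested genes 14.8% were lower and 36.0% higher. The share of higher among all calls was 74.4%, and 61.5% under upper-quartile scaling and 44.7% under quantile normalization. Slc1a3 (-4.89 ± 0.47, limma adjusted p = 7.4e-05), Mlc1 (-6.62 ± 0.60, limma adjusted p = 5.2e-05) and Hopx (-4.81 ± 0.42, limma adjusted p = 5.0e-05) were among the lower ones. Gfap overlapped between the tumor populations, with 2398, 4851 and 3998 in CD11b+ against 3160.3, 3962 and 5657 in GFP+ libraries (-0.20 ± 0.46, limma adjusted p = 0.739). S100b, at 464, 559 and 398 against 820.1, 1021 and 772, lay lower without overlap and did not pass either (-0.88 ± 0.44, limma adjusted p = 0.121). A p above the threshold does not show that the levels were equal.

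The RasV12 effect differed between CD11b+ and GFP+ cells for 8 of the 33 genes, all with the larger log2 fold change in CD11b+ cells, where 2.06% of all tested genes were called in that direction and 2.34% in the other. At an unadjusted p under 0.05 it was 16 higher and 1 lower, edgeR called 5 higher and 0 lower, and DESeq2 13 higher and 0 lower. Of all 29835 tested genes, 5727 had a limma unadjusted p under 0.05 in either direction. By edgeR 1013 of them were called in either direction, and by DESeq2 3135. The share of higher among all calls was 46.9%, and 32.2% under upper-quartile scaling. This contrast was 4.27 for Gfap, which rose in CD11b+ cells and did not pass in GFP+ cells. For Aldoc, S100b and Cldn10 the fall was in GFP+ cells, while the CD11b+ values were -0.26, 0.10 and 3.13 and did not pass. Slc4a4 passed in both populations with opposite signs (-2.31 in GFP+ and 2.67 in CD11b+ cells), although the CD11b+ value turned to -0.38 with the receptor rate subtracted. Slc1a2, Gja1 and Slco1c1 made up the 8. Gfap, S100b and Aldoc passed this contrast in all 25 alternatives, Cldn10 in 24, Slc4a4 in 23, Gja1 in 17, Slco1c1 in 16 and Slc1a2 in 9. The remaining 25 did not pass. Ndrg2 and Mt3, which fell in GFP+ cells, were -2.28 and -0.89 in CD11b+ cells without passing, and their differences of effect were 4.10 ± 1.17 and 3.85 ± 1.03 (limma adjusted p = 0.0661 and 0.0507).

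**Figure D5:**
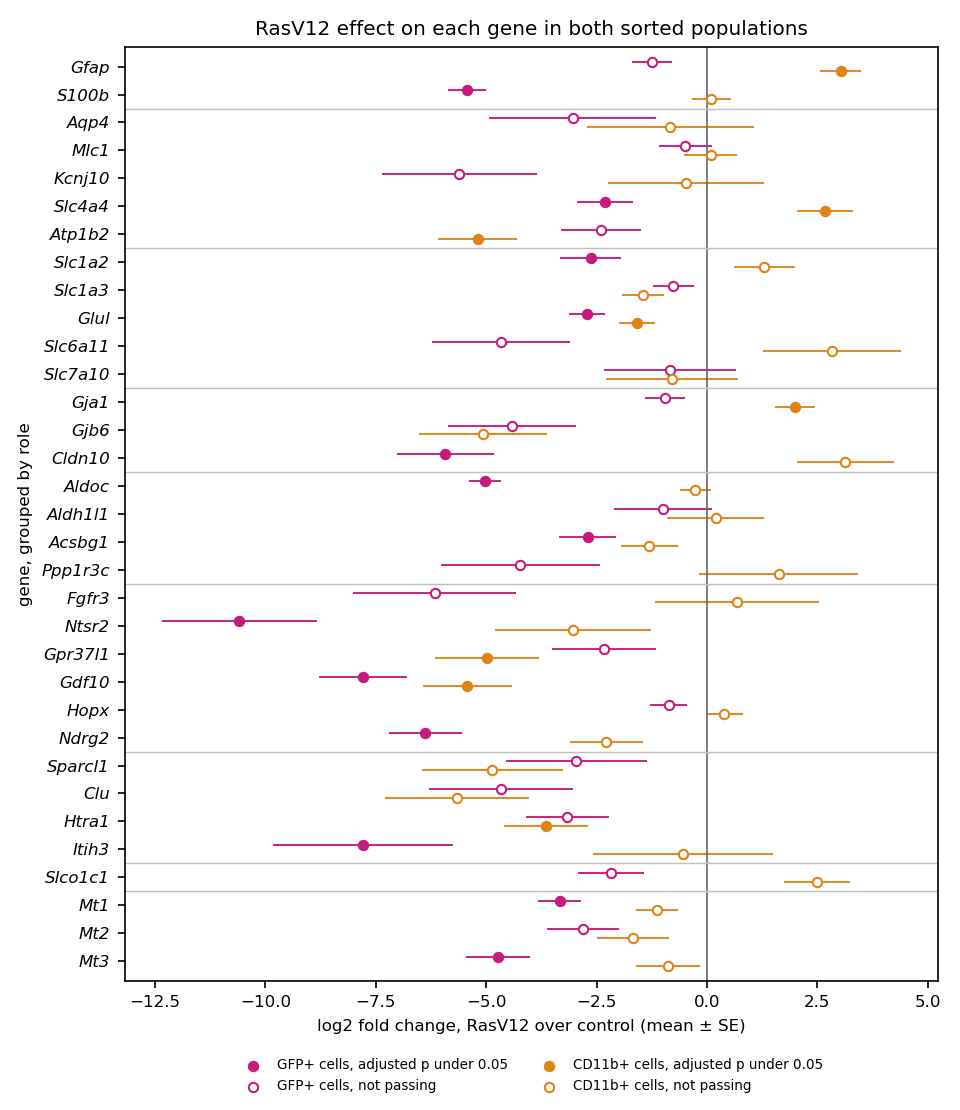
Log2 fold change ± SE between RasV12 and control for each of the 33 genes, in GFP+ cells (magenta) and CD11b+ cells (orange), filled where the adjusted p was under 0.05, with a line at 0. All magenta points are below 0 (Slc1a3 is above it under quantile normalization), and the orange points of Gfap (3.02), Slc4a4 (2.67) and Gja1 (1.99) are filled above it.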

How the data were processed

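RNA from 12 libraries of sorted mouse brain cells was analysed from 2 tables that the authors deposited: a signal, which is the read count of each gene divided by a factor of its library (the normalized count), and FPKM values. Sepazol was used to isolate the RNA, which was amplified as cDNA with a SMARTer low-input kit and made into libraries with Nextera XT, per the labels' protocols; neither kit keeps the strand. Per the submitters' processing notes, the build was GRCm38.p6 and the tools included DESeq2 1.20.0, featureCounts of Subread 1.6.2, the aligner HISAT2 2.1.0 and bcl2fastq 2.17.1.14; the sources used here do not say which of them made which value.

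Each library had 1 step of which 99.987% or more of its deposited values were whole multiples (tolerance 0.05), and dividing by it gave reads and their totals. 1 read was worth 0.358 to 1.5 normalized counts, and 4.46 and 5.54 in RasV12 CD11b+ 1 and 2, so genes with few reads are coarsely measured there. Gene identifiers, without their version, matched GENCODE for 98.5% of genes, which gave exon lengths. Promoters were from RefSeq (29 of the 33 genes matched).

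Samples were grouped by the labels' genotype, cell type and origin. For 5 comparisons, log2 values of the normalized count raised by 1 were tested with limma 3.58.1 (trended variance; R 4.3.3), a mean for each group and all 12 libraries in the fit. Benjamini-Hochberg adjusted p-values under 0.05 were called. This scale understates changes of low genes. In GFP+ cells the SE of the log2 fold change had a median of 1.37 over genes. Alternatives were the FPKM table (pseudocount 0.1), upper-quartile and quantile scaling, pseudocounts 0.5 and 10, 2 other filters, robust variance, only the groups compared, a block for the replicate number, the recovered reads tested by DESeq2 1.42.0 or by edgeR 4.0.16 (TMM, quasi-likelihood), subtraction of the rate over 2017 receptor genes, and leaving out libraries. The test was tried on simulated data.

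All 33 genes are accounted for, and of each other list up to 4 genes with the smallest adjusted p are named. The 33 genes and the lists were chosen with earlier results of these data known.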

Additional observations from a re-analysis of the deposited data

Results flagged for a closer look

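The RasV12 effect differed between CD11b+ and GFP+ cells for 8 of the 33 astrocyte and Bergmann glia genes, by limma on the difference of the 2 effects. On the log2 scale, CD11b+ minus GFP+, the differences were 4.27 for Gfap, 5.53 for S100b, 4.98 for Slc4a4, 3.92 for Slc1a2, 2.94 for Gja1, 9.05 for Cldn10, 4.76 for Aldoc and 4.66 for Slco1c1. Each rests on 3 libraries in each of 4 groups. In S100b, Aldoc, Cldn10 and Slc1a2 the GFP+ effect passed and the CD11b+ effect did not. In Gfap and Gja1 the CD11b+ effect passed and the GFP+ effect did not, in Slc4a4 both passed, and in Slco1c1 neither did. With the receptor-gene rate subtracted, the difference was 9.56 for Cldn10, 1.96 for Slc4a4, 0.59 for Slc1a2 and 2.31 for Slco1c1, and none of these 4 passed.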

How the results depend on the processing

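The count of the 33 genes lower in RasV12 GFP+ cells, 13 as reported, was 20 with pseudocount 10, 21 with DESeq2 and 21 without the shallow RasV12 CD11b+ libraries 1 and 2, and 9 to 19 with each library left out. In CD11b+ cells the 3 higher and 5 lower genes became 1 and 8 under upper-quartile scaling, 3 and 11 under quantile normalization, 3 and 2 without a filter, 0 and 0 with the CD11b+ libraries alone, 0 and 4 with edgeR, 5 and 4 with DESeq2, 1 and 9 with the receptor rate subtracted and 1 and 6 without the shallow libraries. Each library left out gave 1 to 4 higher and 1 to 6 lower. Calls over all 29835 tested genes, in either direction, moved too. In GFP+ cells they were 2027 as reported, 2000 with pseudocount 10 and 4907 with DESeq2. In CD11b+ cells they were 1599 as reported, 1878 under upper-quartile scaling and 2421 under quantile normalization. There they were 0 with the CD11b+ libraries alone, 434 with edgeR and 2403 with DESeq2. They were 1084 of 45618 genes without a filter and 3261 of 23759 with the receptor rate subtracted. For CD11b+ against GFP+ cells, leaving out a library gave 26 to 32 lower in control, and in tumors 16 to 19 lower and 0 to 1 higher (Slc6a11 without RasV12 GFP+ 3, Ppp1r3c without RasV12 CD11b+ 2). The 8 genes with a higher difference of effects became 5 under quantile normalization, 14 with pseudocount 10, 5 with edgeR, 13 with DESeq2 and 5 with the receptor rate subtracted, and 5 to 9 with each library left out. Lower differences, 0 as reported, were 1 with the rate subtracted, 3 without the shallow libraries, and 0 to 1 with each library left out. Among the log2 fold changes of the 33 genes in GFP+ cells, and of the genes called in the other comparisons, signs turned for Slc1a3 in GFP+ cells under quantile normalization (1.21), Mlc1 there without RasV12 GFP+ library 1 (-0.79 to 0.037 with each library left out) and Slc4a4 in CD11b+ cells with the rate subtracted (-0.38). In the other comparisons the signs of genes that did not pass moved too: in CD11b+ cells 13 of the 33 were above 0 as reported, 9 under upper-quartile scaling and under quantile normalization, 16 with DESeq2 and 6 with the rate subtracted. Between the tumor populations 6 were above 0 as reported, 9 without RasV12 GFP+ library 3 and 1 with the rate subtracted. For the difference of effects it was 26 as reported and 20 under quantile normalization and with the rate subtracted. Over all tested genes, calls on the difference of effects were 1312 as reported, 1376 under quantile normalization and 2018 with pseudocount 10. They were 1013 with edgeR, 3135 with DESeq2 and 2436 of 23759 genes with the rate subtracted. The causes were not tested.

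Libraries of the same number showed little shared deviation (correlations over genes -0.03 to 0.09), so no pairing by number was seen. A correlation over all tested genes, many of them noisy, cannot exclude that libraries of the same number share a mouse or a batch. With the replicate block 12 genes were lower in GFP+ cells, and 3 were higher and 3 lower in CD11b+ cells. Of all 29835 tested genes, that block gave 1855 calls in GFP+ and 1212 in CD11b+ cells, in either direction. A correlation best with the own number was seen in 5 of 12 checks.

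Having 3 libraries per group, 1 tumor tissue against 1 control tissue, and low depth in RasV12 CD11b+ 1 and 2 limit these results.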

Other observations

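Etnppl, an astrocyte enzyme of phosphoethanolamine breakdown outside the 33 genes, was chosen here after its values were seen. Its normalized counts were 1820, 2619 and 2744 in Control GFP+, 5, 33.8 and 24.3 in RasV12 GFP+, 247, 1334 and 215 in Control CD11b+ and 2402, 3556 and 1918 in RasV12 CD11b+ libraries. It was thus higher in CD11b+ than in GFP+ cells of the tumors (7.19 ± 0.81, limma adjusted p = 1.9e-04), while in control cerebellum it was lower in CD11b+ cells (-2.51 ± 0.81, limma adjusted p = 0.0374). The change between RasV12 and Control CD11b+ cells did not pass (2.61 ± 0.81, limma adjusted p = 0.0744), and the difference of the RasV12 effects was 9.69 ± 1.15 (limma adjusted p = 6.7e-04).

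Lcn2, a secreted lipocalin on the reactive astrocyte list that myeloid cells also make, fell in CD11b+ cells, from 2062, 775 and 2263 in control to 0, 0 and 60.1 in RasV12 libraries (-8.61 ± 1.81, limma adjusted p = 0.0194). In GFP+ cells it read 295, 197 and 1 in control and 1918, 1064 and 1646 in RasV12 libraries and did not pass (4.94 ± 1.81, limma adjusted p = 0.137).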
